A study of Homo sapiens with 12 samples.

Results

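The genes described here lie on the distal long arm of chromosome 15. Members were chosen by position and abundance as the protein-coding genes that start at or beyond 70 Mb of chromosome 15 (GRCh38) and reach a mean of at least 5 CPM (counts per 1000000 counts of the library) across the SUDHL16 libraries other than CE-26. The region was itself picked because its genes had been seen higher in resistant SUDHL16, so the SUDHL16 contrast below is a description of what chose the members and carries no test. The files list 228 protein-coding genes in the region, of which 113 lay below the abundance limit and 6 were left out by name (PKM, ETFA, PSMA4, BCL2A1, POLG and IDH2). This left 109 members of 60675 genes listed in all.

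The study sequenced RNA from SUDHL6 and SUDHL16, established human cell lines of diffuse large B-cell lymphoma (DLBCL), each as the purchased parental line and as a derivative resistant to venetoclax (ABT-199), an inhibitor of the anti-apoptotic protein BCL2. Each resistant line is a single derivative of its parent, selected under venetoclax at doses raised step by step, and it tolerated at least 10 times the IC50 of that parent. There were 3 libraries in each of the 4 groups (SUDHL6-parental CE-7 to CE-9, SUDHL6-resistant CE-10 to CE-12, SUDHL16-parental CE-25 to CE-27 and SUDHL16-resistant CE-28 to CE-30). SUDHL6 libraries were made with a NEBNext Ultra II kit and read on a HiSeq 4000, and SUDHL16 libraries with an Illumina stranded total RNA kit after ribosomal depletion and read on a NovaSeq 6000, so line, kit and instrument cannot be told apart in any comparison between the lines.

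Chromosome 15 is acrocentric, and all of its protein-coding genes are on the long arm. Genes that are neighbours on a chromosome arm usually differ in function, and what they have in common is the DNA molecule they sit on: when a cell gains or loses a copy of a segment, the transcripts of most genes on it tend to move together by a similar factor. Tumour cell lines often carry such segments. DNA copy number was not measured in these files, so nothing below is a measurement of it.

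Promoters are shown for 4 members that mark the extremes of the data: PSTPIP1 (highest fold change in SUDHL16 with CE-26), RAMAC (the median), AP3B2 (the lowest) and TLE3 (the first member in the region). Each is the RefSeq sequence on GRCh38.p14 from 250 bases before to 50 bases after the RefSeq start, read 5′ to 3′ on the gene's strand. Capitals mark the CCAAT box (CCAAT or its reverse complement ATTGG) and the GC box (GGGCGG or CCGCCC), 2 short elements found in many promoters.
PSTPIP1, chr15:76994876-76995175, plus strand: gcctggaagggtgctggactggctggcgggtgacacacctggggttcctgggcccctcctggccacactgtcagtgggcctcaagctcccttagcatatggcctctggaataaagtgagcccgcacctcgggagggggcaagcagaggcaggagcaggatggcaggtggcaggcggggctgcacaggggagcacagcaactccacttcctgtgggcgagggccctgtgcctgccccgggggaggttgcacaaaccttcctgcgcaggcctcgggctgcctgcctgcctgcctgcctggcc
RAMAC, chr15:82985960-82986259, plus strand: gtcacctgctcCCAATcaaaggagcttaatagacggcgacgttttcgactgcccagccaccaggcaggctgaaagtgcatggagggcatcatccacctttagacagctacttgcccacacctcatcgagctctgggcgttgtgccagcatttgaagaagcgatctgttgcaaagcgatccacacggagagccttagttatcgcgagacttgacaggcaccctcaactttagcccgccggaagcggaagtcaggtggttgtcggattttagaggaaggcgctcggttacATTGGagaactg
AP3B2, chr15:82709826-82710125, minus strand: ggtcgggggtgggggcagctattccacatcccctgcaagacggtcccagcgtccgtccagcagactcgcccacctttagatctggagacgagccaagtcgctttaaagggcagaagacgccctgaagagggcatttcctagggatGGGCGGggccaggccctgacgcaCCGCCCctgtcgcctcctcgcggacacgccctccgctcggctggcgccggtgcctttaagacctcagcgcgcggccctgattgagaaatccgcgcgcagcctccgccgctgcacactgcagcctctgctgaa
TLE3, chr15:70097868-70098167, minus strand: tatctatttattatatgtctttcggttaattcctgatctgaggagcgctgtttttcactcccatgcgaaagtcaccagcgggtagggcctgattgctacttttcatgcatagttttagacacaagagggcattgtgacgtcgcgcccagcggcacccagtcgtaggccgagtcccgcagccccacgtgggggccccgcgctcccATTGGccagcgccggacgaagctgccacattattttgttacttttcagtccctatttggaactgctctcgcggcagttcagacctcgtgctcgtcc
The PSTPIP1 window held neither element, RAMAC held 2 CCAAT boxes, AP3B2 held 2 GC boxes and TLE3 held 1 CCAAT box.

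A RefSeq promoter was matched for 94 of the 109 members. Their median GC content was 68.7% and their median ratio of observed to expected CpG was 0.839, against 58.7% and 0.579 over all 35116 RefSeq promoters of this length. The GC box was found in 76.6% of member promoters and 45.0% of all promoters, the CCAAT box in 33% and 34.6%, the TATA box (TATAAA, either strand) in 4.26% and 11.5%, and the E-box CACGTG in 12.8% and 7.26%. Expressed genes of chromosome 15 that start before 60 Mb are the nearer comparison, and among 126 of their promoters the shares were 63.5%, 39.7%, 3.17% and 6.35% in the same order. Their median GC content was 62.5% and their median CpG ratio 0.853, so the CpG ratio of the members was not above that of proximal genes. Fold changes are given beside these features as a description. The median log2 fold change in SUDHL16 was 0.93 for 31 promoters with a CCAAT box and 1.14 for 63 without, and 1.002 for 72 with a GC box and 1.15 for 22 without. The 12 members with a CpG ratio under 0.6, among them CSK, FES, IL16 and PSTPIP1 (named after their values were seen), had a median of 1.31, and the 82 from 0.6 upward had a median of 1.02.

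Library quality was uneven in SUDHL16. SUDHL6 libraries held 33992784 to 40885665 counts, SUDHL16 libraries other than CE-26 held 14335460 to 22068221, and CE-26, a parental library, held 4131927. In CE-26, 55.4% of counts fell on protein-coding genes, while the rest of SUDHL16 lay between 84.3% and 90.2%. It had counts in 34938 genes, and the rest in 20896 to 24655. The main medians and counts over members are therefore given with CE-26 and without it. Values of single genes, windows and promoter classes are with CE-26 unless stated. Some single genes change without CE-26: the log2 fold change goes from 2.53 to 3.03 for SEMA4B, from 0.66 to 1.10 for FES and from 0.65 to 0.44 for UBL7. The B-cell markers MS4A1, CD79A, CD79B, PAX5 and BCL6 ranged from 171 to 2160 CPM over all 12 libraries, so every library carried the B-cell genes of its label. The 10 markers of T cells, myeloid cells, epithelium and fibroblasts had a mean of at most 3.44 CPM in every group, with 1 exception, CD3E, a chain of the T-cell receptor complex, at 12.4 CPM in SUDHL16-resistant and 2.31 CPM in SUDHL16-parental, while CD3D and CD2 were at 0 in SUDHL16-resistant. The highest value of COL1A2, a fibroblast collagen, was 9.99 CPM, in CE-26.

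Members took up about 2.0 times as large a share of protein-coding counts in resistant SUDHL16 as in parental SUDHL16. Members held 0.491%, 0.533% and 0.507% of protein-coding counts in parental CE-25, CE-26 and CE-27, a mean of 0.51% ± 0.0214 (SD, n = 3). They held 1.037%, 0.992% and 1.026% in resistant CE-28, CE-29 and CE-30, a mean of 1.02% ± 0.0237 (SD, n = 3). No resistant library came near a parental one, and the ratio of means was 2.0 with CE-26 and 2.04 without it. In SUDHL6 the same genes held 0.776% ± 0.00492 (SD, n = 3) in parental and 0.806% ± 0.00124 (SD, n = 3) in resistant libraries, a ratio of 1.04, with every resistant library above every parental one. In bulk RNA a change in RNA per cell and a change in how many cells carry it cannot be told apart.

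**Figure D1:**
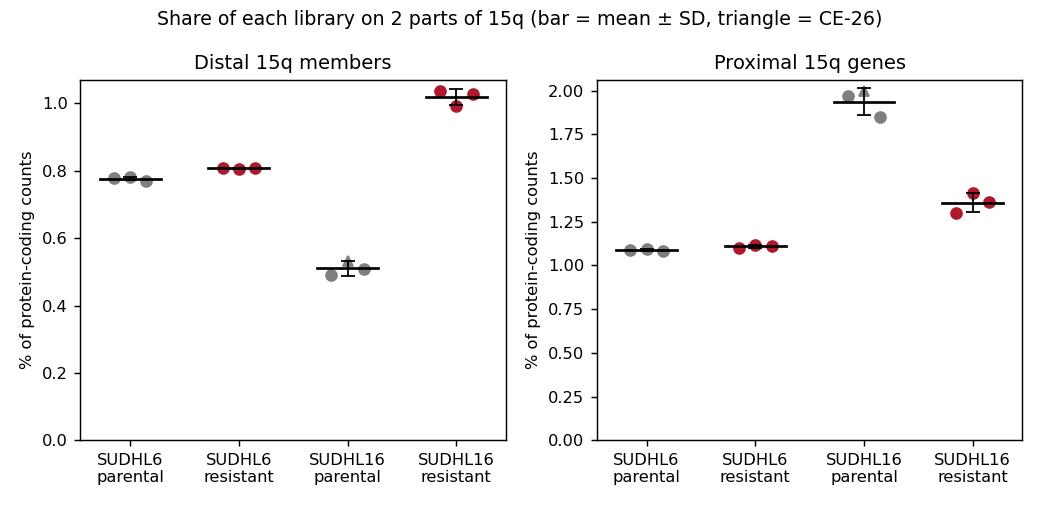
Each point is 1 library and shows the percent of its protein-coding counts on the 109 distal 15q members (left) or on the 145 expressed protein-coding genes of chromosome 15 that start before 60 Mb (right), with the group mean and SD over 3 libraries and CE-26 drawn as a triangle. In SUDHL16 the distal share goes from 0.51% to 1.02% and the proximal share from 1.94% to 1.36%, while in SUDHL6 the shares are 0.776% and 0.806%, and 1.09% and 1.11%.

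The other end of the arm moved the opposite way in SUDHL16. The 145 expressed protein-coding genes that start before 60 Mb, called proximal 15q here, held 1.94% ± 0.0779 (SD, n = 3) of protein-coding counts in parental and 1.36% ± 0.0561 (SD, n = 3) in resistant libraries, a ratio of 0.701. In SUDHL6 their shares were 1.09% ± 0.00624 and 1.11% ± 0.00755 (SD, n = 3 each).

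Gene by gene, nearly all members were higher in resistant SUDHL16. Fold changes come from edgeR, fitted to all genes of a line with TMM scaling, and are given as log2 of resistant over parental with the standard error (SE) of the fit. The median over the 109 members was 1.02, a fold of 2.03, with quartiles of 0.72 and 1.36 and a range from -1.14 to 3.38. In all, 103 members were higher and 6 lower, 70 lay between 0.5 and 1.5, and 23 were at 1.5 or above. Without CE-26 the median was again 1.02 and 107 of 109 were higher. Over all 9743 expressed protein-coding genes the median was 0.07, and taken from that base 53 members lay within 0.3 of 1 on the log2 scale. The spread among members was no wider than elsewhere in the genome, with an interquartile range of 0.64 for members and 0.68 for genes of the other chromosomes. Among whole chromosomes the medians ran from -0.07 on chromosome 4 to 0.57 on chromosome 20, with chromosome 15 as a whole at 0.08. A whole chromosome is not a like unit for a chosen segment, and segments of other chromosomes are not given here.

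**Figure D2:**
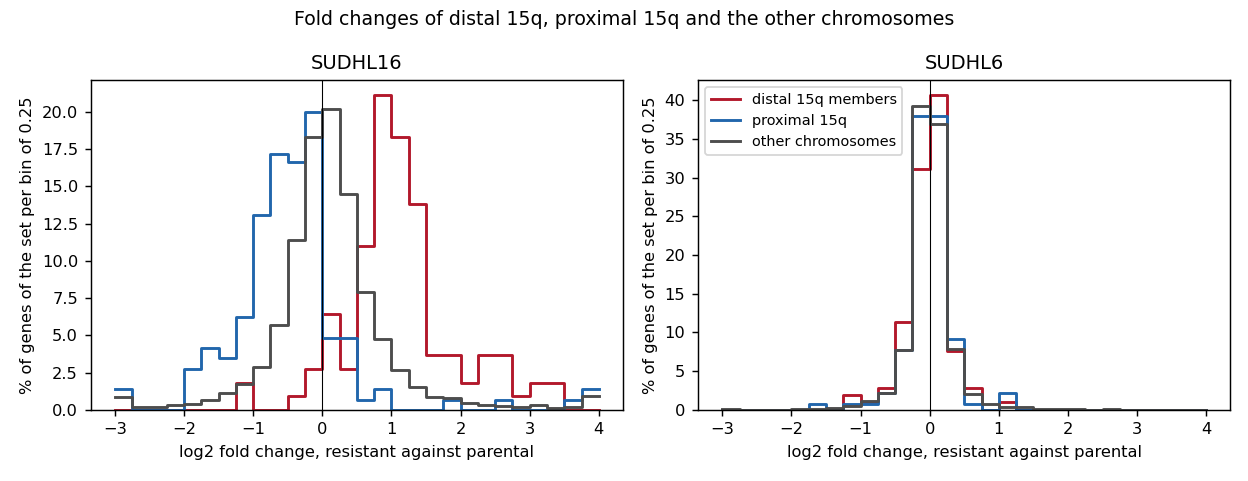
The percent of genes of each set that falls in each log2 fold change bin of 0.25 is drawn for SUDHL16 (left) and SUDHL6 (right), for the 109 distal 15q members, the 145 proximal 15q genes and the 9428 genes of other chromosomes, with values past the ends held in the end bins. In SUDHL16 the members are displaced as a body to a median of 1.02 and the proximal genes to -0.47, whereas in SUDHL6 the 3 outlines lie over each other.

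Library by library, the same displacement was seen within each group. For each gene the log2 CPM of a library was taken relative to the mean of its cell line, with CE-26 left out of the SUDHL16 mean. That mean thus holds more resistant than parental libraries, and CE-26 is the only library outside its own reference. The median over members was then set against the median over all expressed protein-coding genes. Members stood at -0.667, -0.262 and -0.53 in parental CE-25, CE-26 and CE-27, and at 0.424, 0.395 and 0.457 in the resistant libraries. CE-26 was the parental library nearest to the resistant ones by this measure, and whether its depth and composition play a part in that value was not tested. In SUDHL6 the 6 libraries lay between -0.008 and 0.01.

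By position, a step lay at the near border, and most windows beyond it had similar medians. Of the windows of 5 Mb, those from 70 to 95 Mb had medians of 1.13 (22 members), 0.93 (27), 0.99 (20), 0.997 (10) and 1.35 (19). The window from 95 Mb held only IGF1R, LRRC28 and MEF2A (the latter pair named after their values were seen), with a median of 0.19, and the last, from 100 Mb, had a median of 0.81 over 8 members. In the windows from 70, 85 and 90 Mb every member was higher in the resistant line. Nearer the centromere the windows from 60 and 65 Mb had medians of 0.21 and 0.17, and all 8 windows before 60 Mb were below 0, from -0.14 to -0.84. Over the 145 proximal genes the median was -0.47 with and without CE-26, with 123 genes lower and 22 higher.

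**Figure D3:**
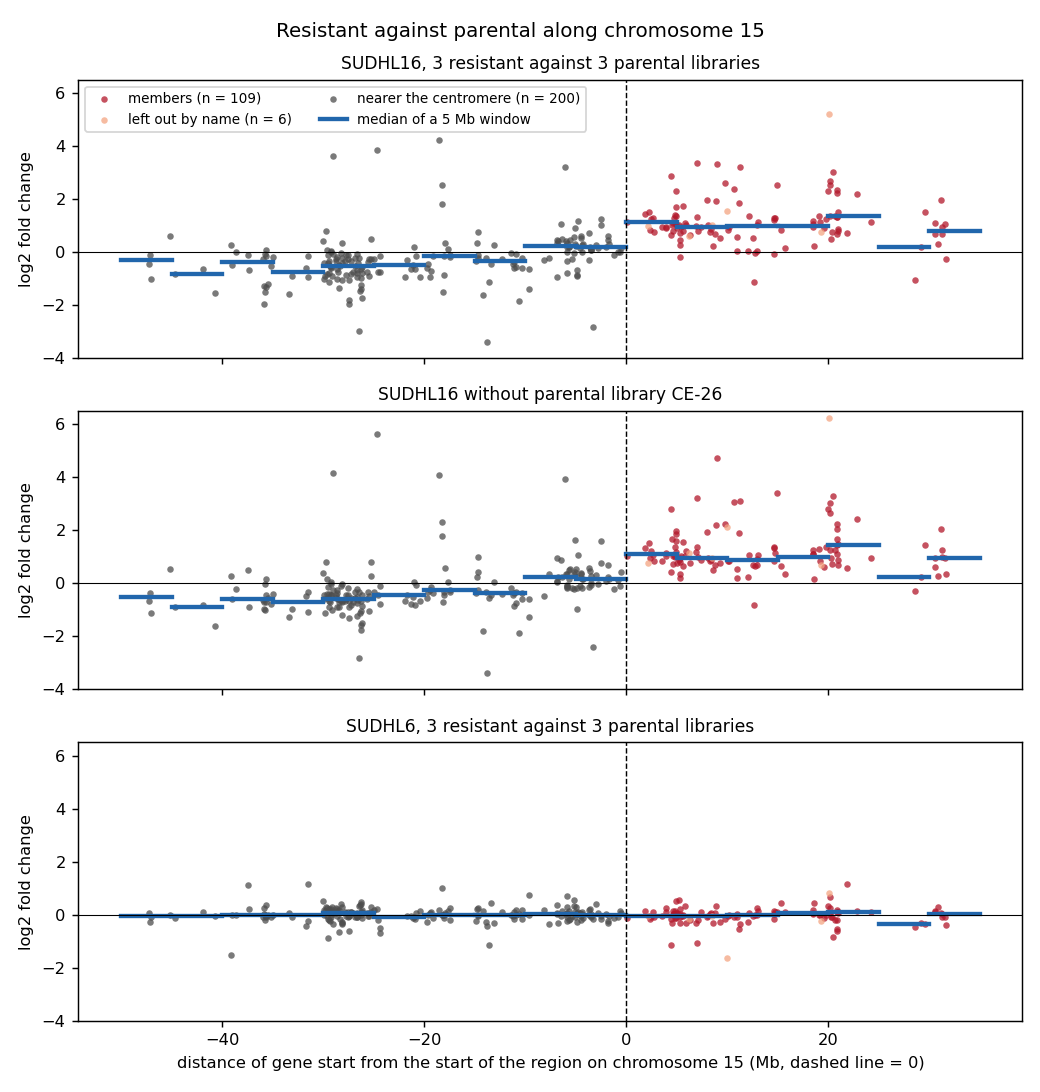
Each point is 1 expressed protein-coding gene of chromosome 15, with its distance from the start of the region in Mb on the x axis, its log2 fold change on the y axis, and blue bars for the medians of 5 Mb windows, in SUDHL16 (top), SUDHL16 without CE-26 (middle) and SUDHL6 (bottom). In SUDHL16 the window medians go from below 0 at the far left through 0.17 just before the dashed line to 1.13 just after it, and SUDHL6 shows no step.

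The genes next to the border differed across it, which is a description, since the region was picked for its higher genes. Of 55 expressed genes from 60 to 70 Mb, 40 were higher and 15 lower, and 11 were at 0.5 or above. Among these were C15orf61 at 1.25 and MAP2K5 at 1.03 (named after their values were seen). The 3 nearest expressed genes before it had log2 fold changes of 0.02 ± 0.50 (SE) for GLCE, an epimerase of heparan sulfate synthesis, 0.02 ± 0.23 for KIF23, a kinesin of cytokinesis, and 0.15 ± 0.39 for RPLP1, a protein of the ribosomal stalk. The first members beyond it had 1.15 ± 0.30 for TLE3, a Groucho-type corepressor, 1.45 ± 0.25 for MYO9A, an unconventional myosin, and 1.51 ± 0.26 for PARP6, an ADP-ribosyltransferase. Without CE-26 the values were 0.13 for GLCE, -0.12 for KIF23 and 0.42 for RPLP1, and 1.04 for TLE3, 1.34 for MYO9A and 1.54 for PARP6. Of the genes left out by name, PKM lies between MYO9A and PARP6 and had 0.97 ± 0.35, and 0.78 without CE-26. Between the start of RPLP1 at 69452814 and that of TLE3 at 70047790 no expressed protein-coding gene was listed.

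At the abundance limit, the genes just above it were DET1 (5.80 CPM, log2 fold change 1.06) and AP3B2 (6.15 CPM, -1.14), and those just below were ST20-MTHFS (4.95 CPM, 2.30) and LYSMD4 (4.77 CPM, 0.06). The limit uses resistant libraries, so a gene could enter by being high in them. That was so for 9 members with a parental mean under 5 CPM (PSTPIP1, RASGRF1, MTHFS, ABHD17C, STARD5, ZSCAN2, PDE8A, DET1 and CRTC3), and the other 100 had a parental mean at or above it. Of the 113 genes below the limit, 29 passed the filter of the fit and 14 of them were higher. Their median was -0.26 with CE-26. In the fit without CE-26 the filter was run again and can take other genes, and the median of those below the limit was 1.93. The medians may cover different genes, so they do not show a change of direction in the same genes. When the limit was applied to the SUDHL6 libraries instead, it took 106 genes, 97 of them shared with the members. Their SUDHL16 median was 0.96.

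Set against SUDHL6, distal 15q was the low part of the chromosome in parental SUDHL16. The median log2 ratio of parental SUDHL16 (without CE-26) to parental SUDHL6, from mean CPM plus 0.5, was -0.60 over members and 0.71 over proximal 15q, with 0.09 over all expressed protein-coding genes. Between the resistant lines the medians were 0.34 over members and 0.19 over proximal 15q, with 0.15 over all. The median ratio of the members thus lay below that of all genes between the parental lines and above it between the resistant lines. These are ratios between lines, not levels within SUDHL16. This comparison uses the same SUDHL16 libraries as the fold changes above, so it adds only the SUDHL6 levels, and kit and instrument differ between the lines.

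**Figure D4:**
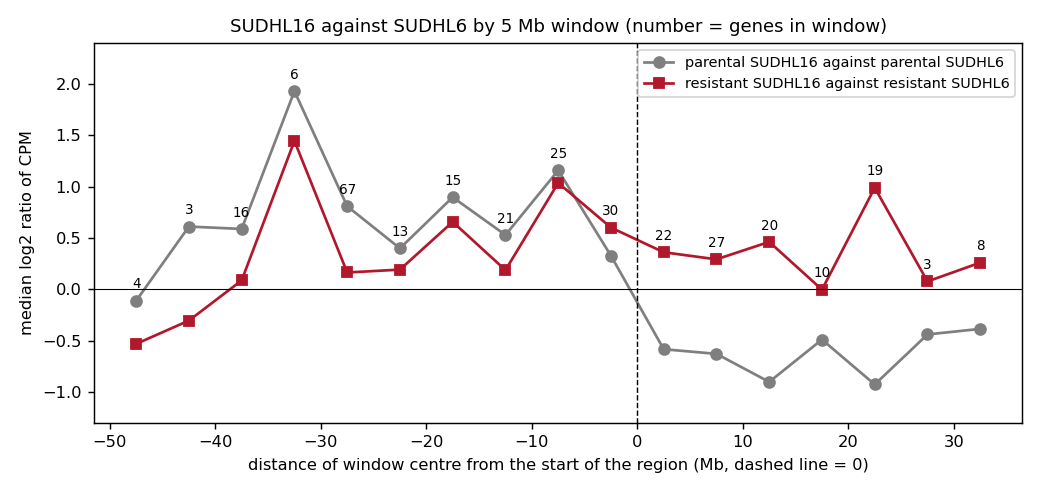
Points are medians of the log2 ratio of SUDHL16 to SUDHL6 CPM over the expressed protein-coding genes of each 5 Mb window, by distance of the window's centre from the start of the region in Mb, for the parental lines (grey circles) and the resistant lines (red squares), with the number of genes above each pair. The parental line drops below 0 past the dashed line, with a median of -0.60 over members. The resistant window medians there run from -0.004 to 0.99, with a median of 0.34 over members.

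Among single members, the 6 with the highest fold changes with CE-26 were PSTPIP1, RASGRF1, STARD5, CRTC3, SEMA7A and CIB1. PSTPIP1, RASGRF1, STARD5 and CRTC3 reached the abundance limit only through the resistant libraries, as did PDE8A, ABHD17C and MTHFS. That these genes were higher in resistant libraries therefore follows from the limit. Without CE-26, PDE8A, a cyclic nucleotide phosphodiesterase (3.39, from 2.52, named after its values were seen), and ABHD17C, a depalmitoylating enzyme (3.08, from 2.38), took the places of SEMA7A (2.79) and CIB1 (2.66). PSTPIP1 (ENSG00000140368, chr15:76993359-77037475), a cytoskeletal adaptor of blood cells, had 2.204, 2.07 and 5.28 CPM (scaled by TMM, as in all that follow) in parental CE-25, CE-26 and CE-27 and 42.6, 23.1 and 38.1 CPM in resistant CE-28, CE-29 and CE-30. All resistant libraries were well above the parental ones, and the log2 fold change was 3.38 ± 0.46 (SE). In SUDHL6 the gene was at most 0.0983 CPM in any library and was not tested.

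RASGRF1 (ENSG00000058335, chr15:78959906-79090780), an exchange factor that activates Ras, had 3.09, 17.2 and 1.61 CPM in the parental and 38.2, 42.9 and 106.2 CPM in the resistant libraries. CE-26 held the high parental value, and the log2 fold change was 3.34 ± 0.86 (SE) with it and 4.73 without it. STARD5 (ENSG00000172345, chr15:81309053-81324183), a lipid-binding protein, had 1.43, 1.03 and 1.61 CPM in the parental and 4.22, 20.1 and 15.3 CPM in the resistant libraries, with a log2 fold change of 3.22 ± 0.64. Its groups did not overlap, although the resistant libraries varied among themselves, and its exons share bases with those of IL16, so reads could be split between these genes.

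CRTC3 (ENSG00000140577, chr15:90529923-90645345), a coactivator of CREB, had 2.04, 2.76 and 0.993 CPM in the parental and 15, 12.3 and 17.3 CPM in the resistant libraries, a log2 fold change of 3.02 ± 0.49. SEMA7A (ENSG00000138623, chr15:74409289-74433958), a membrane-anchored semaphorin of lymphocytes, had 10.4, 8.61 and 12.5 CPM against 109.6, 70.2 and 55.3 CPM, with 2.88 ± 0.32. For both genes every resistant library exceeded every parental one several-fold. CIB1 (ENSG00000185043, chr15:90229975-90234047), a calcium- and integrin-binding protein, was the most even of the 6, with 6.45, 6.89 and 7.88 CPM against 49.0, 41.0 and 44.8 CPM and a log2 fold change of 2.66 ± 0.25, though it overlaps GDPGP1.

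The 6 members below 0 were AP3B2, IGF1R, TARS3, NEIL1, WDR73 and WHAMM, and in all of them CE-26 had the highest parental value. AP3B2, the neuronal β subunit of the AP-3 adaptor complex, had 5.79, 14.1 and 9.81 CPM in the parental and 3.35, 3.95 and 5.96 CPM in the resistant libraries, with -1.14 ± 0.48 (SE) and -0.81 without CE-26. IGF1R, the receptor of insulin-like growth factor, had 8.43, 23.8 and 6.77 CPM against 7.37, 7.999 and 3.15 CPM, with -1.04 ± 0.59 and -0.29 without CE-26. These were the only members still below 0 without CE-26, and neither separated the groups.

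The other 4 turned above 0 once CE-26 was left out. WDR73, a WD-repeat protein, had 23.8, 94.7 and 25.8 CPM against 58.7, 41.0 and 33.4 CPM, and moved from -0.09 to 0.85. WHAMM, which promotes actin nucleation at membranes, moved from -0.02 to 0.65, and its parental values were 19.4, 64.8 and 26.5 CPM against 42.8, 34.1 and 30.1 CPM. TARS3, a threonyl-tRNA synthetase, moved from -0.26 to 0.35, and NEIL1, a DNA glycosylase of base excision repair, from -0.20 to 0.19. NEIL1 shares exonic bases with MAN2C1 on the opposite strand, and the strand setting of the counting is not given in the sources used here.

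CSK and AKAP13 were among the members with the most reads, which depends on transcript length as well as abundance. CSK, the kinase that restrains Src-family kinases, had 295.9, 172.9 and 320.0 CPM in the parental and 714.8, 614.8 and 606.8 CPM in the resistant libraries, with a log2 fold change of 1.29 ± 0.32 (SE). AKAP13, an anchor of protein kinase A, had 261.5, 172.9 and 236.3 CPM against 342.5, 380.4 and 455.8 CPM, with 0.81 ± 0.28. Both genes were thus higher in every resistant library, but not every member with many reads was. LRRK1 (named after its values were seen) had 264.4, 253.5 and 276.3 CPM in the parental libraries. In the resistant libraries it had 386.4, 358.5 and 231.4 CPM, so its groups overlapped, with a log2 fold change of 0.30 ± 0.28.

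Grouped by role, the medians of the 7 lists in SUDHL16 lay between 0.81 and 1.35 with CE-26 and between 0.74 and 1.36 without it, and their order changed with that library. Immune cell and kinase signalling had a median of 1.35 (1.24 without CE-26) over 16 members, of which 15 were higher. PSTPIP1 and RASGRF1 led it, and FES, a tyrosine kinase, at 0.66 and IGF1R at -1.04 were lowest. SEMA4B, a transmembrane semaphorin, had 7.495, 17.2 and 6.52 CPM in the parental and 50.04, 62.7 and 58.2 CPM in the resistant libraries, with 2.53 ± 0.39 (SE).

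Transcription and chromatin had a median of 1.27 (1.34 without CE-26), and all 11 members were higher. CRTC3 led with 3.02, followed by the zinc-finger protein ZNF710 with 2.30, and lowest were PML, which forms nuclear bodies, with 0.95 and SIN3A, the scaffold of a histone deacetylase complex, with 0.71. PML had 32.3, 38.9 and 32.9 CPM in the parental and 75.6, 54.2 and 70.7 CPM in the resistant libraries, with no overlap. Membrane traffic and protein processing had a median of 1.19 (1.36 without CE-26) with 13 of 15 higher, from SCAMP5, a secretory vesicle protein, at 2.30 and FURIN at 2.21 down to WHAMM and AP3B2. FURIN, a protease that matures secreted proteins, had 22.7, 17.9 and 30.9 CPM against 122.2, 111.6 and 101.1 CPM.

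In the ubiquitin pathway all 7 members were higher, in the narrowest range of the lists, from 0.65 for UBL7, a ubiquitin-like protein, and 0.83 for ZFAND6, a zinc-finger protein, to 1.11 for UBE2Q2, a conjugating enzyme, and 1.23 for ARIH1, a ubiquitin ligase, with a median of 1.06 (1.02 without CE-26). Mitochondrion and metabolism had a median of 0.99 (1.11 without CE-26) and all 18 members higher, from STARD5 and MTHFS, an enzyme of folate metabolism, at 2.61 down to NGRN, a mitochondrial ribosome assembly factor, at 0.50 and MAN2C1, a mannosidase, at 0.28. MTHFS had 4.19, 0.344 and 3.66 CPM in the parental and 14.1, 11.4 and 29.2 CPM in the resistant libraries, and shares exons with the readthrough gene ST20-MTHFS.

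The lowest medians were those of genome maintenance and cell division, 0.83 (0.77 without CE-26) with 7 of 8 higher, and of RNA processing and translation, 0.81 (0.74 without CE-26) with 8 of 9 higher. In the first, CIB1 was highest and BLM, the helicase of Bloom syndrome, had 41.8, 32.4 and 39.5 CPM in the parental and 90.0, 120.0 and 81.7 CPM in the resistant libraries, with 1.35 ± 0.24 (SE). AEN, a nuclease that p53 induces, was at 0.23. In the second, SNUPN, an import adaptor for spliceosomal particles, had 1.72 and EFL1, a GTPase of ribosome maturation, 1.35, while MEX3B, an RNA-binding protein, had 0.05 ± 0.51 and TARS3 was lowest. The 25 members in no list had a median of 0.90 (0.88 without CE-26) with 24 higher, from ABHD17C at 2.38 to WDR73. The list medians describe the contrast that chose the region, and nothing is read from them on roles. They include members that reached the abundance limit only through the resistant libraries. These are PSTPIP1, RASGRF1 and PDE8A in immune cell and kinase signalling, and CRTC3 and ZSCAN2 in transcription and chromatin. The others are STARD5 and MTHFS in mitochondrion and metabolism, DET1 in the ubiquitin pathway, and ABHD17C in no list.

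**Figure D5:**
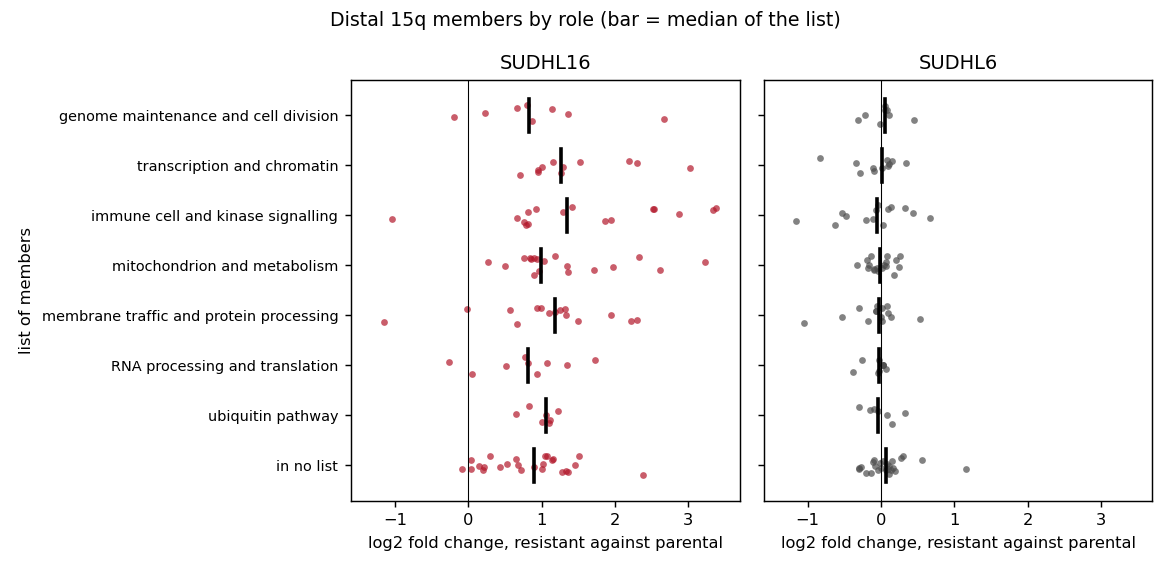
Each point is 1 member, placed by its log2 fold change (x axis) and its role list (y axis), with a bar at the median of the list, in SUDHL16 (left) and SUDHL6 (right). Medians lie between 0.81 and 1.35 in SUDHL16 and between -0.05 and 0.08 in SUDHL6.

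In the edgeR fit of SUDHL16, 37 of 109 members passed an adjusted p of 0.05 at 1.5-fold or more as raised and 0 as lowered, the latter also with DESeq2. The raised count was 9 without CE-29, 13 without CE-25, CE-27 or CE-30, 15 without CE-28 and 56 without CE-26. Over all 15708 genes tested 3.2% were raised and 2.1% lowered. Resistant and parental libraries did not overlap in 85 members, all higher in resistant, where 14.6% of all genes were apart as higher and 11.9% as lower. Without CE-26 it was 98 members higher and 0 lower, against 22.4% and 19.8%. These counts rest on the contrast that chose the members, and nothing is read from them.

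SUDHL6 values were not used by the limits that chose the members, though earlier results of these data were known when the comparison was set. Of the 109 members, 106 passed its filter on low counts (not PSTPIP1, RASGRF1 and AP3B2), and their median log2 fold change was 0.01, with quartiles of -0.14 and 0.10. There were 55 higher and 51 lower, and the range ran from -1.15 to 1.16. The medians of the 5 Mb windows from 70 Mb onward lay between -0.35, in the window of 3 genes, and 0.09. By edgeR (quasi-likelihood, adjusted by Benjamini-Hochberg over 16662 genes), 2 members were raised and 3 lowered at an adjusted p of 0.05 and 1.5-fold. The background was 4.31% of all genes raised and 4.65% lowered, and the member shares were 1.89% and 2.83%. At any size, 24 members passed as higher and 28 as lower (22.6% and 26.4% of 106), against 17.7% and 19.7% of all genes. Groups did not overlap in 30 members as higher and 32 as lower, against 23.1% and 24.8%. SUDHL6 libraries were close to each other, with a biological coefficient of variation of 0.0516, against 0.468 in SUDHL16 and 0.339 without CE-26, and small differences passed there. The labels do not say whether libraries came from separate cultures, and p-values then measure only the spread between these libraries, which may be technical.

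By role, the calls in SUDHL6 were 1 raised and 1 lowered of 14 tested in immune cell and kinase signalling, 1 lowered of 11 in transcription and chromatin, 1 lowered of 14 in membrane traffic and protein processing, 1 raised of 25 in no list, and 0 in the other 4 lists. The 2 members raised in SUDHL6 were SLCO3A1 and SEMA4B. SLCO3A1, an organic anion transporter, had 9.93, 7.05 and 8.70 CPM in the parental libraries CE-7, CE-8 and CE-9 and 19.2, 19.4 and 19 CPM in the resistant CE-10, CE-11 and CE-12, a log2 fold change of 1.16 ± 0.10 (SE) with an adjusted p of 1.45e-06 by edgeR. SEMA4B had 8.52, 6.85 and 7.89 CPM against 11.9, 12.5 and 12.8 CPM, with 0.67 ± 0.09 and an adjusted p of 7.32e-05 by edgeR. Both were also higher in resistant SUDHL16, at 0.72 and 2.53.

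The 3 members lowered in SUDHL6 were SEMA7A, TSPAN3 and CRTC3. TSPAN3, a tetraspanin, had 33.5, 30.7 and 31.9 CPM in the parental and 15.01, 15.3 and 16.1 CPM in the resistant libraries, with -1.05 ± 0.06 (SE) and an adjusted p of 2.64e-08 by edgeR. SEMA7A had 2.59, 2.45 and 1.84 CPM against 1.02, 1.02 and 1.05 CPM, with -1.15 ± 0.19 and an adjusted p of 4.16e-04 by edgeR. CRTC3 had 9.31, 8.74 and 8.68 CPM against 5.62, 5.45 and 3.88 CPM, with -0.83 ± 0.13 and an adjusted p of 2.38e-04 by edgeR. All 3 were higher in every resistant SUDHL16 library than in any parental one, and TSPAN3 had 34.5, 40.3 and 40.8 CPM against 97.8, 94.6 and 97.5 CPM there.

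In one fit of all 12 libraries SLCO3A1 and TSPAN3 passed, while SEMA7A (-1.15), SEMA4B (0.67) and CRTC3 (-0.84) kept their folds and did not pass.

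Below the 1.5-fold limit, AKAP13 was higher in resistant SUDHL6 by 0.44 ± 0.02 (SE) with an adjusted p of 3.74e-09 by edgeR, AEN by 0.44 ± 0.04 with 9.34e-07 by edgeR, and SCAMP5 by 0.53 ± 0.04 with 9.55e-07 by edgeR. IGF1R was lower, at -0.47 ± 0.05 with an adjusted p of 1.97e-05 by edgeR, and BLM at -0.21 ± 0.03 with 1.50e-04 by edgeR. The medians of the role lists in SUDHL6 lay between -0.05 and 0.06.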

How the data were processed

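RNA counts per gene of 12 libraries were analysed. Per the labels, the authors trimmed reads with Trim Galore, aligned them with HISAT2 to GRCh38 and used StringTie and edgeR. The deposited values are raw whole-number counts per gene, without normalization, and the gene annotation, counting settings and strand setting are not given in the sources used here. Positions and gene types came from GENCODE release 44 on GRCh38, which matched 56558 of 60675 identifiers. CPM was computed from these counts. Each line was fitted alone in edgeR 4.0.16 (R 4.3.3) with filterByExpr, TMM scaling and the two-sided quasi-likelihood test, adjusted by Benjamini-Hochberg over 16662 genes in SUDHL6 and 15708 in SUDHL16. The SE is the size of the log2 fold change over the square root of F. A gene was called at an adjusted p of 0.05 and 1.5-fold. The fit was tested on simulated data. DESeq2 1.42.0, other scalings, filters, borders and left-out libraries were alternatives.

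Genes were named by rule: the 6 highest and 6 lowest members, the genes next to both limits, the ends of each role list, members called in SUDHL6, and the 3 with most reads, of which 1 is not reported here, nor is 1 of the B-cell markers. Members, role lists and tests were chosen with earlier results of these data known. Role lists came from general knowledge of the genes.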

Additional observations from a re-analysis of the deposited data

Results flagged for a closer look

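In 8 named members the groups did not overlap in either line and moved in opposite directions, higher in every resistant SUDHL16 library and lower in every resistant SUDHL6 library. Over all 109 members, 24 were apart in both lines in opposite directions and 25 in the same direction. The share over all genes was not computed, so these counts are not read as a result about the members. In SUDHL6 alone, 28.3% of members were apart as higher and 30.2% as lower, against 23.1% and 24.8% of all genes. The log2 fold changes in SUDHL16 and SUDHL6 were 2.88 and -1.15 for SEMA7A, 3.02 and -0.83 for CRTC3, and 1.33 and -1.05 for TSPAN3. They were 2.21 and -0.53 for FURIN, where the adjusted p in SUDHL6 was 0.0636 by edgeR's quasi-likelihood test. Smaller values in SUDHL6 were seen for BLM (1.35 and -0.21), ARIH1 (1.23 and -0.09), SIN3A (0.71 and -0.09) and UBL7 (0.65 and -0.15). The difference between the lines was not tested. In SUDHL16 the direction is the one that chose the members. Groups of 3 libraries were too small to look gene by gene for outlying libraries. CE-26 was set apart as a whole library, by its depth and composition.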

How the results depend on the processing

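In SUDHL16 the member median was 1.024 and became 0.934 with upper-quartile scaling, 1.141 with library totals, 1.140 without a filter and 0.803 with the region begun at 60 Mb. Such scalings shift all genes alike: the median of all expressed protein-coding genes went from -0.018 to 0.187 over them, and members stayed 0.949 to 0.960 above it. Leaving out 1 library gave medians of 0.998 to 1.106. The 37 members called raised became 65 with DESeq2, 81 in one fit of 12 libraries, 21 of the region from 80 Mb (55 higher), and 13 without CE-25, 56 without CE-26, 13 without CE-27, 15 without CE-28, 9 without CE-29 and 13 without CE-30. The region from 60 Mb had 2 lowered. The share of all genes called is given only for the main fit. The counts under other settings therefore cannot show whether a setting called more genes everywhere or more members. In SUDHL6 the median of 0.007 became 0.024 with upper-quartile scaling, 0.016 with library totals and 0.016 from 80 Mb (35 higher, 1 lowered), and -0.008 to 0.009 without 1 library. One fit of 12 libraries called 1 raised and 1 lowered in SUDHL6, where SEMA7A (-1.15), SEMA4B (0.67) and CRTC3 (-0.84) kept their folds without passing, and the region from 60 Mb had 85 higher and 4 raised. No paired analysis was possible because the labels carry no replicate numbers. Causes were not tested. Depth limits members with few reads: the lowest count of a member in a library was 1.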

Other observations

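Genes that are not protein-coding leaned the same way. Of 17 such genes from 70 Mb with at least 5 CPM, 12 were higher in resistant SUDHL16 and their median log2 fold change was 0.35. Without CE-26 it was 14 of 17, and the median 0.72. Before 60 Mb 2 of 21 were higher, with a median of -0.58. In SUDHL6 the medians were -0.05 and 0.14. Among those of the distal region, named after their values were seen, CHASERR, the long noncoding RNA next to CHD2, had 1.70 and ST20 had 1.35, while the pseudogene DNM1P47 had -0.73. No test was made on these genes, whose direction in SUDHL16 was seen together with that of the members.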
